A study of Mus musculus with 2 samples.

Results

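The 41 genes described here carry cells through DNA replication and mitosis. They are the rows of the deposited bone marrow table that bear the names of a set list, and all 41 were found among its 25943 genes. The set holds 16 genes of G1/S entry and DNA replication and 25 genes of G2 and mitosis. Single-cell RNA sequencing covered the bone marrow of wild-type male mice, 8 to 10 weeks of age, in 1 control library and 1 stroke library. The stroke model was MCAO, the surgical occlusion of the middle cerebral artery, which supplies the brain. Marrow flushed from the long bones of the hind leg was freed of red cells by lysis and loaded without a sort on a microwell capture system. The sources used here do not give how many animals made up a library, how long after the occlusion marrow was taken or how control mice were handled.

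With 1 library per group there is no replicate, so no difference between the libraries could be tested. The intervals below are exact 95% intervals that cover counting error only, and they say nothing about how much one mouse differs from another. There were 5212 control cells, with 3344 unique molecular identifiers (UMIs, which tag single captured RNA molecules) at the median, and 5398 MCAO cells, with 4952. A level is the summed UMIs of a gene per 10000 UMIs of the class of cells. Levels were not scaled by gene length, so they are compared between classes and libraries and not between genes. Cells were named by serial numbers in place of barcodes, and 5120 of those serial numbers occurred in both libraries, so barcodes shared by the libraries could not be counted. Cell classes were rebuilt by clustering that left out 237 genes of cell division, these 41 among them. They are named from marker genes with the ending "-like", and the authors may have drawn the borders between classes elsewhere. 10 classes held at least 100 cells in each library and were compared. Markers are given here for some of them. The granule protease gene Elane was at 78.0 in control and 78.8 in MCAO promyelocyte-like cells, and Siglech at 29.3 and 23.1 in plasmacytoid dendritic-like cells. Vpreb3 was at 28.9 and 23.0 in the joint class of pro-B and pre-B cells, here called pro/pre-B-like. Cd34 was at 1.81 and 2.07 in haematopoietic progenitor-like cells. The secondary granule gene Ngp was at 584 and 536 in pre-neutrophil-like cells. It was also at 404 and 361 in immature neutrophil-like cells, so Ngp alone does not separate these classes. Parts of the B cell, monocyte, erythroid and mature neutrophil classes were named by their whole marker score, since at most 1 of their own markers was among their 10 leading genes.

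A cell that is about to divide first builds cyclin E, which with its kinase drives entry into S phase. Cdc6 and Cdt1 load the ring of Mcm2 to Mcm7 onto replication origins, Gins2 helps to turn that ring into a working helicase, Pcna is the sliding clamp of the polymerases, and Tyms, Tk1, Rrm1 and Rrm2 supply nucleotides. Cyclin A, cyclin B and Cdk1 then drive mitosis, in which Plk1 and the Aurora kinases act on chromosomes and spindle, centromere proteins and kinesin motors move the chromosomes, and Cdc20 and Ube2c serve the ubiquitin ligase that ends mitosis. In bone marrow these genes mark the amplifying stages of each blood lineage, whereas mature neutrophils no longer divide.

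Transcription of the replication genes is known to follow E2F factors, and that of the mitosis genes the NF-Y factor at CCAAT boxes and the DREAM and MuvB complexes at a short element called the cell cycle homology region. RefSeq promoter windows (GRCm38.p6, 250 bases before to 50 after the start site) were matched for 33 of the 41 genes. The first window listed for a gene was used, whereas the shares over all windows count every window of every gene. The windows of 5 genes are shown as examples and do not all carry the difference between the groups. Ncapg2 is a mitosis gene that holds E2F letters and no CCAAT. The windows of Ccne1, Tk1, Tyms, Birc5 and Nusap1, not shown, held none of the letters searched. Each is written 5′ to 3′ on the strand of its gene, and capitals mark the letters searched on both strands: CCAAT, the cell cycle homology region as TTTGAA or TTCGAA, and E2F as TTCCCGC or TTCGCGC or TTGCCGC or TTGGCGC. Matches may overlap: GCGCCAA, the opposite-strand form of TTGGCGC, holds a CCAAT on the same bases where T follows, and TTGGCGC may run into a second E2F match.
Mcm6, chr1:128359656-128359955, minus strand: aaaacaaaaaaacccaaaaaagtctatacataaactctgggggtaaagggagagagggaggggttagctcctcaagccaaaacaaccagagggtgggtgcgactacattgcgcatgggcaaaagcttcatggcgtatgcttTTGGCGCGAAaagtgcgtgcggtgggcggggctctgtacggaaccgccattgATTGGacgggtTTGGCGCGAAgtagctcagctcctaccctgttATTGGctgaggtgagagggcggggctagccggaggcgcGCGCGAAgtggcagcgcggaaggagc
Cdt1, chr8:122567765-122568064, plus strand: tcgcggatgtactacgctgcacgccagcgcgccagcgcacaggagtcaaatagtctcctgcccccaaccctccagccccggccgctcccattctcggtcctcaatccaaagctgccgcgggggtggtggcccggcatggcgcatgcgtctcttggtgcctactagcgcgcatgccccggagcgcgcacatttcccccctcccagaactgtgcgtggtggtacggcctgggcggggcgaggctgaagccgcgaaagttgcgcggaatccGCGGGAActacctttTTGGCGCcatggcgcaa
Ccnb2, chr9:70421505-70421804, minus strand: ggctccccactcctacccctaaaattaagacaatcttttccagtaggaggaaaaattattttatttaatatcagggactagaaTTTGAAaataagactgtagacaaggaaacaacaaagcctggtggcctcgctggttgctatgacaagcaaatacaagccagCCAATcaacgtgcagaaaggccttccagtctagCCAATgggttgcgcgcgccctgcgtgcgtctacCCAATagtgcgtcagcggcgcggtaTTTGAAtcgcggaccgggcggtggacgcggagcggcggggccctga
Cdc20, chr4:118437294-118437593, minus strand: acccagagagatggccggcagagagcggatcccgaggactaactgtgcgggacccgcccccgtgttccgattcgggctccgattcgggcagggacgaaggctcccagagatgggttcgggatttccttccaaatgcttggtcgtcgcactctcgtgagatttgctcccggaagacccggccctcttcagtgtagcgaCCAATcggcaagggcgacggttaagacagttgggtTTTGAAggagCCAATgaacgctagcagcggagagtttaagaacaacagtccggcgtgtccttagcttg
Ncapg2, chr12:116405186-116405485, plus strand: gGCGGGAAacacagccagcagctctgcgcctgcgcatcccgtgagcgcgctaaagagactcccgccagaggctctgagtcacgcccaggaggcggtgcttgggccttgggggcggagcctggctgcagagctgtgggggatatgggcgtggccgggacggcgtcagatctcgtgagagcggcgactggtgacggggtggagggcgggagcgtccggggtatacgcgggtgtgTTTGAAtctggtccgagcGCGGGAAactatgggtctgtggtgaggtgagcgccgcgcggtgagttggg

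The window of Mcm6, a subunit of the helicase ring, held 5 E2F matches, 2 CCAAT boxes and no cell cycle homology region. Cdt1, the licensing factor, held 2 E2F matches between bases 18 and 39, counted from the start site as base 0. Ccnb2, a B-type cyclin, held 3 CCAAT boxes at bases -87, -54 and -21, with TTTGAA at base 4 and a second one at base -167. Cdc20, the activator of the ligase that ends mitosis, held CCAAT at bases -53 and -8 with TTTGAA between them at base -18. Ncapg2, a subunit of the condensin II complex that compacts chromosomes, held TTTGAA at base -18 and 2 E2F matches, at bases -249 and 0.

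The cell cycle homology region was found in 16 of the 20 matched mitosis genes (80.0%) and in 2 of the 13 matched replication genes (15.4%), against 19.2% of all 32851 windows. CCAAT was found in 17 mitosis genes (85.0%) and 8 replication genes (61.5%), against 37.4% of all windows. Both together stood in 15 mitosis genes (75.0%) and 2 replication genes (15.4%), Mcm2 and Mcm7, against 7.52% of all windows. E2F letters were found in 5 mitosis genes (25%) and 8 replication genes (61.5%), against 9.57%. Among the 20150 windows of protein-coding genes, 16.9% held the cell cycle homology region, 37.8% CCAAT, 6.86% both of these and 12.4% E2F letters. The genes had been sorted into replication and mitosis by known role, without use of these letters, and a match is a description of the window only.

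Across the marrow, every one of the 41 genes had its highest level, as a mean of its shares in both libraries, in 1 of 2 classes. The erythroid-like class was highest for 38 genes, and the pro/pre-B-like class for Top2a, Bub1b and Stmn1. Kif20a, a kinesin gene of late mitosis, was too scarce for that order to hold in each library: its level in erythroid-like cells was 0.189 in control (25 UMIs) and 0.0734 in MCAO (17 UMIs), below the 0.0941 of MCAO progenitor-like cells. The 16 replication genes together reached 86.0 UMIs per 10000 in control and 87.5 in MCAO erythroid-like cells. The haematopoietic progenitor-like class followed with 42.4 and 41.2, then the promyelocyte-like class with 31.6 and 34.8, the pro/pre-B-like class with 30.8 and 37.9, and the monocyte-like class with 21.8 and 22. Mature neutrophil-like cells had 2.77 and 3.02, and immature neutrophil-like cells 2.51 and 2.87. Counting intervals of these last 2 classes overlapped in both libraries, so their order is not resolved. The order of promyelocyte-like and pro/pre-B-like cells was not the same in the libraries: their intervals overlapped in control, and the latter were higher in MCAO.

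The 25 mitosis genes ordered the classes in another way. They summed to 148 and 147 in erythroid-like cells, 97.5 and 114 in pro/pre-B-like cells, 70.5 and 64.4 in promyelocyte-like cells, 67.4 and 60.2 in haematopoietic progenitor-like cells and 67.3 and 57.8 in pre-neutrophil-like cells. Progenitor-like and pre-neutrophil-like cells of the control library thus had mitosis levels with overlapping intervals, while their replication levels were 42.4 and 15.3. Mature neutrophil-like cells had 7.59 in control and 7.91 in MCAO for the mitosis genes.

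**Figure D1:**
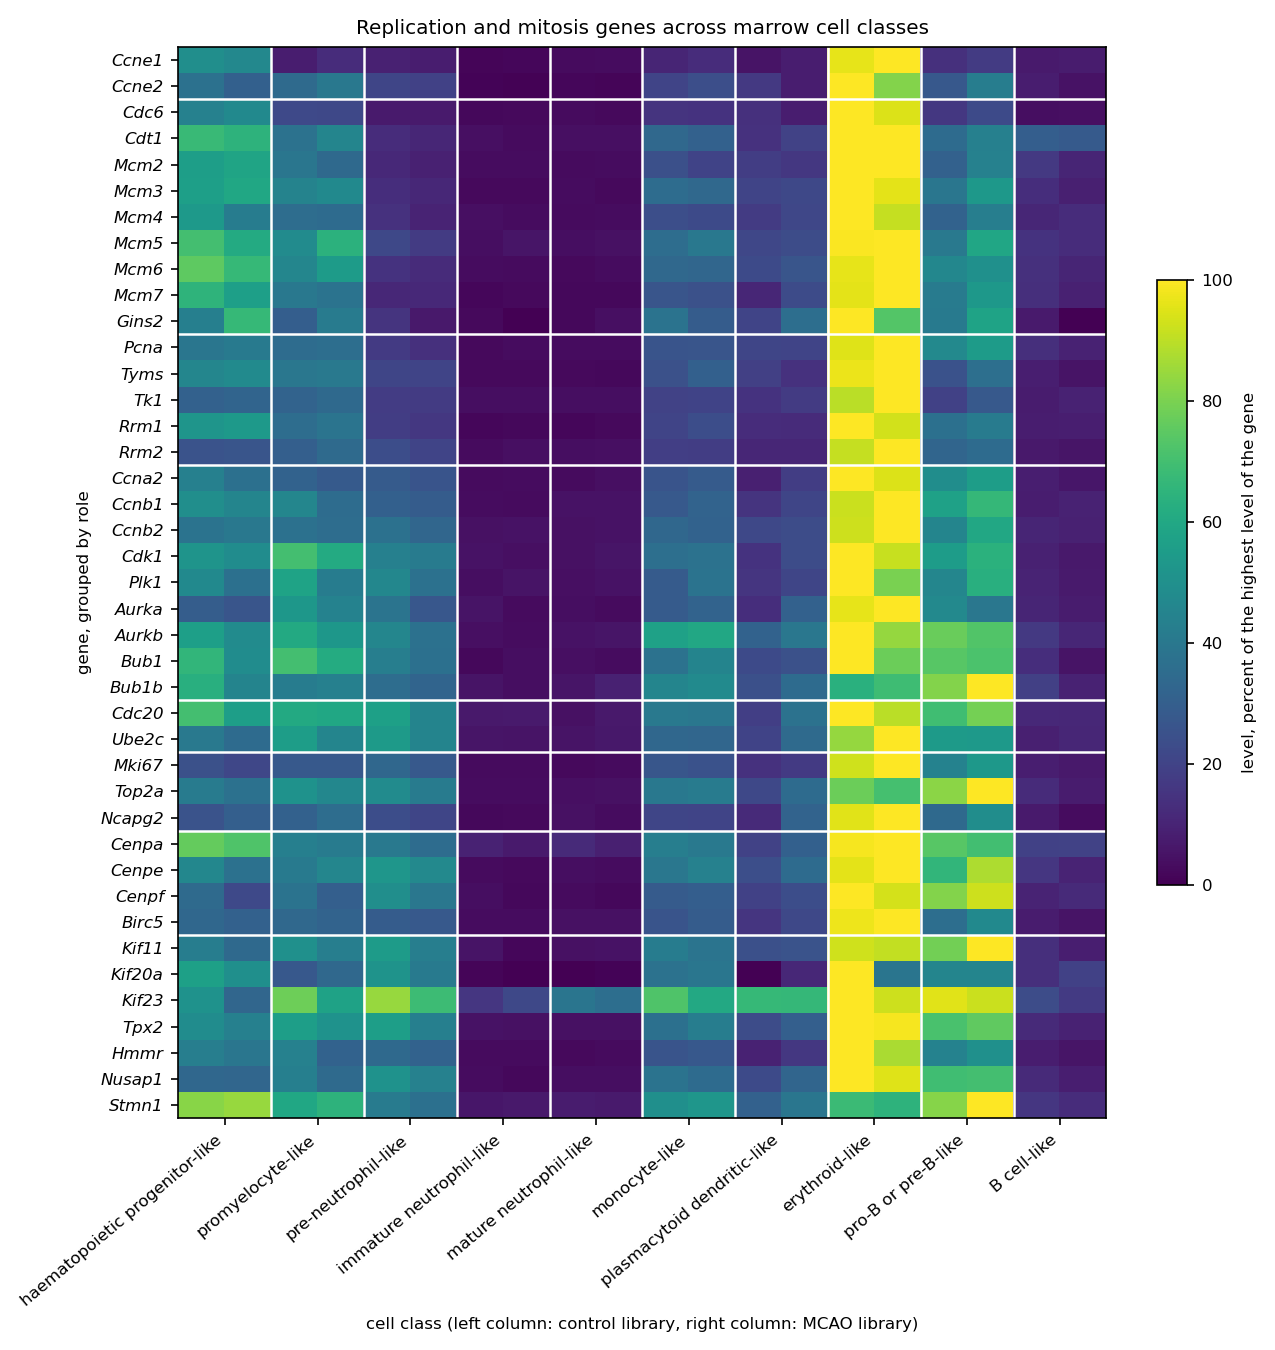
Level of each of the 41 genes in the 10 compared classes, as percent of the highest level of that gene; rows are genes in role order, and each class has a left column for the control and a right column for the MCAO library. The erythroid-like columns are brightest for most genes, both neutrophil-like stages at the end of the line are dark, and Kif23 stays visible in mature neutrophil-like cells.

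Within the role groups, the concentration in erythroid-like cells differed from gene to gene. Of the cyclins E, Ccne1 had 47.1% of the sum of its class levels in erythroid-like cells of the control library and 45.8% in the MCAO library, and Ccne2 had 37.3% and 32.2%. Among the licensing and helicase genes, Cdc6 was the most concentrated with 44.0% and 41.9%, and Mcm5 the least with 27.7% and 25.8%. Of the clamp and nucleotide genes, Rrm2, the regulated subunit of ribonucleotide reductase, had 37.0% and 38.5%, and Pcna 31.7% and 32.3%. Among the cyclins and kinases of mitosis, Ccna2 had 33.1% and 31.4% and Aurkb, the kinase of the chromosomal passenger complex, 22% and 20.3%. Ube2c had 23.2% and 27.0%, and Cdc20 22.8% and 20.8%. Of the chromosome genes, Ncapg2 had 37.3% and 33.7%, while Top2a, the topoisomerase that untangles sister chromatids, peaked in pro/pre-B-like cells with 21.6% and 25.8%. At the centromere, Birc5, the survivin subunit of the passenger complex, had 34.0% and 33.0%, and Cenpa, the centromeric histone, 22.6% and 23.5%. Of the motors and spindle genes, Hmmr had 31.8% and 29.6%, and Kif23, the kinesin of the central spindle, only 16% and 17%.

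Cells that held at least 10 UMIs of these genes were next ranked by the part of those UMIs that came from replication genes, in 6 classes of each library, with the gene in question left out of the ranking. The 29 to 164 cells leaning most to replication in each class were compared with as many leaning most to mitosis. All 16 replication genes had a positive median log2 difference over the 12 comparisons, and 23 of the 25 mitosis genes a negative one. Since genes that share a role also set the ranking, this sign follows in part from the grouping, and the order of the genes is the description.

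At the replication end stood Ccne2 with a median of 2.97, Mcm6 with 2.55 and Cdc6 with 2.37 on the log2(level + 0.02) scale. The nucleotide genes Tyms with 0.84, Rrm2 with 0.79, Tk1 with 0.75 and Rrm1 with 0.46 lay nearest to the middle. Ncapg2 and Stmn1, a tubulin-binding protein, were the 2 mitosis genes above 0, with 0.57 and 0.18. Ncapg2 was above 0 in 11 of 12 comparisons, and Stmn1 in 7 of 12. Cdk1 with -1.13, Mki67 with -1.19 and Ccna2 with -1.24 came next among the mitosis genes. Ube2c with -3.11, the centromere protein gene Cenpf with -3.03, Ccnb1 with -2.82 and Hmmr with -2.80 lay at the far end, and Cenpf was below 0 in all 12 comparisons. The order thus ran from cyclin E and origin licensing, through nucleotide supply, Cdk1 and cyclin A, to cyclin B1 and Ube2c, the ubiquitin-conjugating enzyme of mitotic exit.

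**Figure D2:**
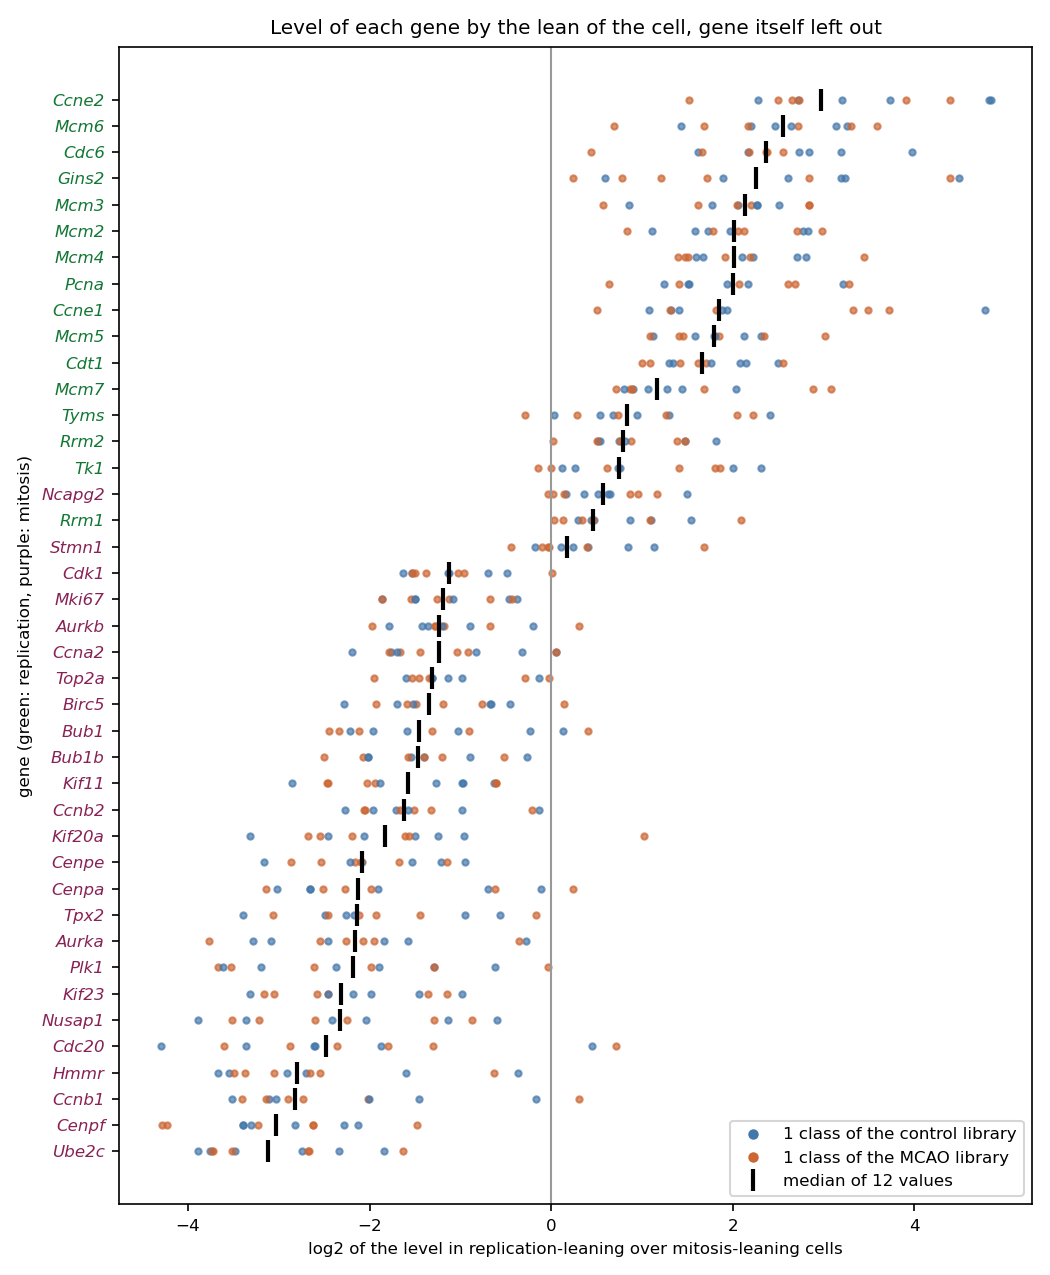
Log2 difference of each gene between replication-leaning and mitosis-leaning cells, with 1 point per class and library (12 points per gene, blue control, orange MCAO) and a black bar at the median. The medians of replication genes (green names) lie right of 0 and those of mitosis genes (purple names) left of it, apart from Ncapg2 and Stmn1, while single points of several genes lie across 0.

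The neutrophil line runs from promyelocytes, which make the primary granules, through dividing pre-neutrophils to immature and mature neutrophils. A difference between classes was called where it was past 2-fold in both libraries on the log2(level + 0.02) scale. At the start of the line, from haematopoietic progenitor-like to promyelocyte-like cells, 1 of 15 replication genes was called lower, Ccne1, and none higher, and no mitosis gene was called, where 11.1% of all ranked genes were lower and 8.02% higher. Between promyelocyte-like and pre-neutrophil-like cells many replication genes were lower and no mitosis gene was. By that rule 9 of 15 replication genes that could be ranked were lower in pre-neutrophil-like cells: Cdc6, Cdt1, all 6 Mcm genes and Pcna. Of all genes ranked between those classes, 20.9% were lower by the same rule and 3.81% higher. None of 24 mitosis genes was called in either direction. The median log2 difference was -1.13 in control and -1.50 in MCAO for the replication genes, and -0.11 and -0.18 for the mitosis genes.

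Mcm6 had a level of 2.70 in control and 3.23 in MCAO promyelocyte-like cells, and of 0.851 and 0.730 in pre-neutrophil-like cells. Mcm3 went from 2.16 and 2.28 to 0.631 and 0.543, and Cdt1 from 1.46 and 1.77 to 0.496 and 0.416. With 0.02 added to each level, these 3 genes of the helicase ring and its loading were at 0.230 to 0.349 times the promyelocyte-like value in either library. The nucleotide gene Rrm2 was closer in both classes, at 5.49 and 6.26 against 4.24 and 3.73. On the mitosis side, Cenpf stood at 2.04 and 1.62 in promyelocyte-like and 2.66 and 2.13 in pre-neutrophil-like cells, and Nusap1, a spindle protein gene, at 2.46 and 1.97 against 2.90 and 2.49. Mki67 stood at 9.84 and 9.86 against 11.9 and 9.93. The ratio of the replication to the mitosis sum was lower in pre-neutrophil-like cells of both libraries, at 0.227 and 0.230 against 0.448 and 0.540.

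Other genes of DNA replication went the same way: of 42 further replication genes that could be ranked, 21 were lower in pre-neutrophil-like cells, among them the polymerase gene Pola1 and the DNA remodeller Hells, and none was higher. Of 62 further mitosis genes, 4 were lower and 1 was higher. Among the D cyclins and kinases of G1, 5 of 8 were lower: Ccnd2, Cdk4, Cdk6, Myc and Myb. Cdk6, the G1 kinase that cyclin D activates, went from 5.65 and 5.59 to 0.784 and 0.636. Of 17 ranked brake and exit genes 1 was higher and 1 lower: Cdkn2d, an inhibitor of that kinase, was at 1.09 and 1.2 against 2.91 and 3.20, and Wee1, a kinase that holds back Cdk1, was the lower one.

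The pre-neutrophil-like class was not uniform. At a finer clustering 2 clusters carried that name. The first, of 212 control and 357 MCAO cells, had a mitosis level of 101 and 100.3 and a replication level of 23.9 and 23.0. The second, of 240 and 611 cells, had a mitosis level of 21 and 16.6 and a replication level of 3.93 and 3.86. The ratio of replication to mitosis was 0.236 and 0.229 in the first and 0.187 and 0.232 in the second, so both lay below the 0.448 and 0.540 of promyelocyte-like cells.

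At the next step, from pre-neutrophil-like to immature neutrophil-like cells, both groups dropped. All 15 ranked replication genes and all 24 ranked mitosis genes were higher in pre-neutrophil-like cells in both libraries, where 13.8% of all ranked genes were higher and 3.56% lower. The mitotic kinesin gene Cenpe was at 2.73 and 2.45 against 0.145 and 0.125, Nusap1 at 2.90 and 2.49 against 0.18 and 0.125, and Mki67 at 11.9 and 9.93 against 1.06 and 1.01. Between immature and mature neutrophil-like cells no gene of either group was called (0 of 11 and 0 of 21, with 1.5% of all ranked genes higher and 4.11% lower). Of 15 ranked brake and exit genes 1 was called, the antiproliferative gene Btg1, at 1.54 and 1.29 in immature and at 5.71 and 3.06 in mature neutrophil-like cells.

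**Figure D3:**
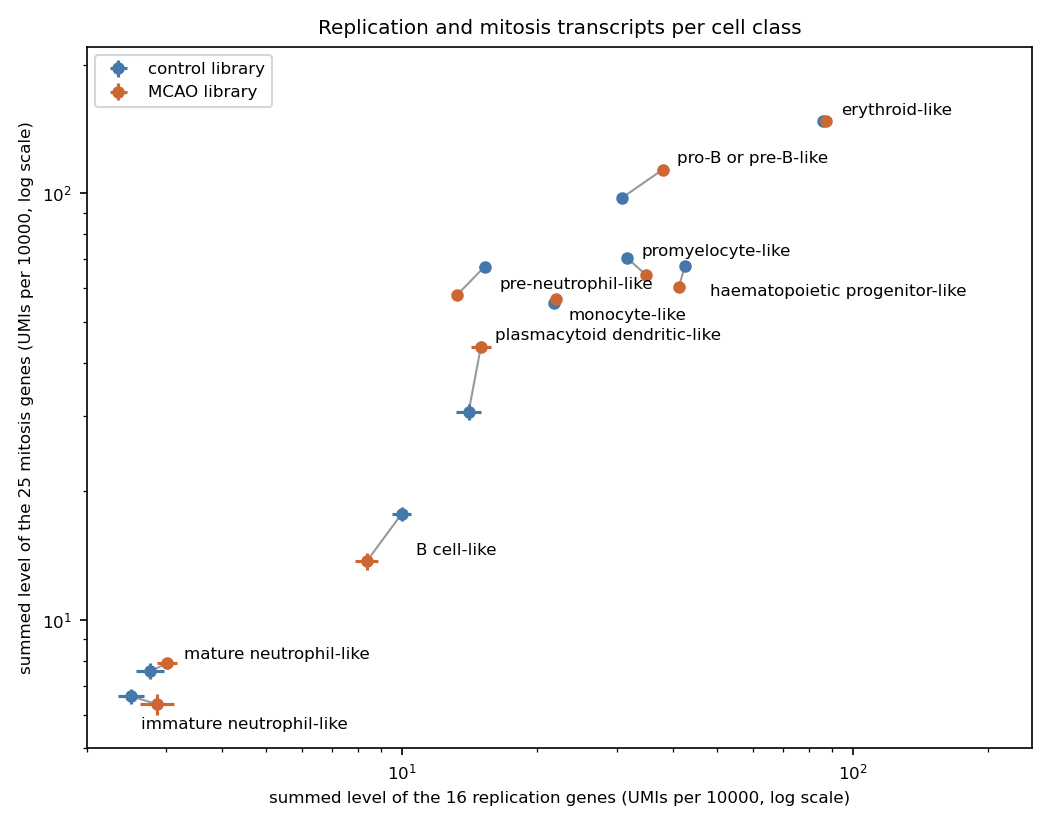
Summed level of the replication genes (x axis) against that of the mitosis genes (y axis), both in UMIs per 10000 on log scales, with 1 point per class and library, exact 95% counting intervals, and a line joining the libraries of a class. Pre-neutrophil-like cells lie left of promyelocyte-like and progenitor-like cells at a similar height, and erythroid-like points of both libraries nearly coincide at the top right.

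Erythroid-like cells, the precursors of red cells that were not removed by lysis, had the highest levels of both groups. Against haematopoietic progenitor-like cells, 5 of 16 replication genes (Ccne2, Pcna, Tyms, Tk1 and Rrm2) and 14 of 24 mitosis genes were higher past 2-fold in both libraries, and none was lower, where 5.74% of all ranked genes were higher and 15.2% lower. The progenitor-like class was led by Car1 and Atp1b2 as well as Cd34, and at the finer clustering a cluster of 48 control and 68 MCAO cells led by Car1, Atp1b2 and Gfi1b was named early erythroid-like, beside 59 and 52 cells named progenitor-like. Replication levels were 49.2 and 46.4 in the former and 26.2 and 25.7 in the latter. Rrm2 was at 16.5 and 18.1 against 4.65 and 4.77, and Tk1, thymidine kinase, at 5.20 and 5.80 against 1.81 and 1.87. The proliferation marker Mki67 was at 32.8 and 35.4 against 8.76 and 7.52. The helicase genes differed less, with Mcm6 at 5.66 and 5.88 against 4.43 and 3.95. Stmn1 was at 5.35 and 5.08 against 6.46 and 6.63.

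The erythroid-like class joined 2 clusters, and their division transcripts differed. The large cluster of 136 control and 203 MCAO cells had replication levels of 90.2 and 95.5 and mitosis levels of 154 and 158. The small one, 20 and 50 cells led by globin genes, had replication levels of 3.74 (interval 2.40 to 5.57) and 4.21 (3.37 to 5.21), and mitosis levels of 22.9 (19.4 to 26.9) and 31.2 (28.8 to 33.8). Mki67 made up 8.57 of the mitosis level in control and 13.3 in MCAO, and Nusap1 2.65 and 2.68. Ccnb1 had 0 UMIs in control and 4 in MCAO, and Mcm6 had 1 and 9. In this cluster the mitosis sum was above that of mature neutrophil-like cells in both libraries. Its replication interval overlapped theirs (2.57 to 2.97) in control and lay above theirs (2.87 to 3.18) in MCAO.

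In the B line, the pro-B and pre-B stages rearrange their antigen receptor genes and include dividing cells, and B cells in marrow are mostly at rest. In pro/pre-B-like cells, 12 of 15 replication genes and all 24 ranked mitosis genes were higher than in B cell-like cells past 2-fold in both libraries, where 7.06% of all ranked genes were higher and 5.09% lower. Kif11, the motor that separates the spindle poles, was at 2.44 and 3.10 against 0.416 and 0.262, and Cdk1 at 2.79 and 3.23 against 0.461 and 0.349. The 3 replication genes not called were Cdt1 at 1.35 and 1.69 against 1.16 and 1.09, Mcm2 at 1.31 and 1.86 against 0.70 and 0.436, and Ccne1 at 0.449 and 0.556 against 0.233 and 0.247. Cdt1 was thus the replication gene whose level in B cell-like cells came nearest to that of pro/pre-B-like cells. At the finer clustering, 168 control and 50 MCAO pro/pre-B-like cells formed a cluster, named by its marker score, with mitosis levels of 176 and 191, above the erythroid-like class, at replication levels of 44.8 and 42.5.

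Monocyte-like cells held both dividing and resting cells. A cluster of 225 control and 391 MCAO cells had replication levels of 33.3 and 32.8 and mitosis levels of 77.4 and 82.6, while a cluster of 304 and 459 cells had 5.92 and 5.24, and 27.1 and 16.5. The remaining cluster of 67 and 46 cells, led by Ace and Nr4a1 and by none of the monocyte markers used for naming, had mitosis levels of 6.76 and 5.64.

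Cells were then counted as carrying division transcripts after each was thinned to 1000 UMIs, which left out 220 control and 33 MCAO cells that were shallower. A cell was in the replication range if it held UMIs of at least 2 different replication genes, and in the mitosis range likewise. These are ranges cut from counts and not cell types: 387 control and 442 MCAO cells had exactly 2 replication genes, and 1183 and 1333 had exactly 1. Mature neutrophil-like cells, which no longer divide, gave the background: 2.86% (interval 1.97 to 4.02) and 3.37% (2.49 to 4.46) for the replication range, and 14.9% (12.9 to 17.2) and 13.8% (12 to 15.7) for the mitosis range. The median depth of those cells before thinning was 2203 UMIs in control and 3188 in MCAO.

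Over all cells, 19.2% (18.1 to 20.3) of the control library and 22.3% (21.2 to 23.5) of the MCAO library were in the replication range. The mitosis range held 30.9% (29.6 to 32.2) and 35.7% (34.4 to 37.0). Without thinning, the shares were 42.1% and 55.2% for replication and 62.3% and 74.2% for mitosis, and the deeper MCAO library gained more. Promyelocyte-like cells were in either range in 99.1% and 98.1% of cases, and erythroid-like cells were in the mitosis range in 91.0% (85.2 to 95.1) and 93.1% (89.2 to 95.9). Haematopoietic progenitor-like cells were in the replication range in 61.2% (51.1 to 70.6) and 69.0% (60.2 to 77.0). Pre-neutrophil-like cells were in the mitosis range in 52.4% (47.7 to 57.1) and 46.5% (43.3 to 49.7), and in the replication range in 26.1% (22.1 to 30.4) and 21.9% (19.3 to 24.6). Immature neutrophil-like cells, with 12.2% and 10.8% in the mitosis range, were not above the background. That background includes Kif23, which in mature neutrophil-like cells stood at 65.0% of its whole-library level in both libraries. A background without Kif23 is not given here.

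**Figure D4:**
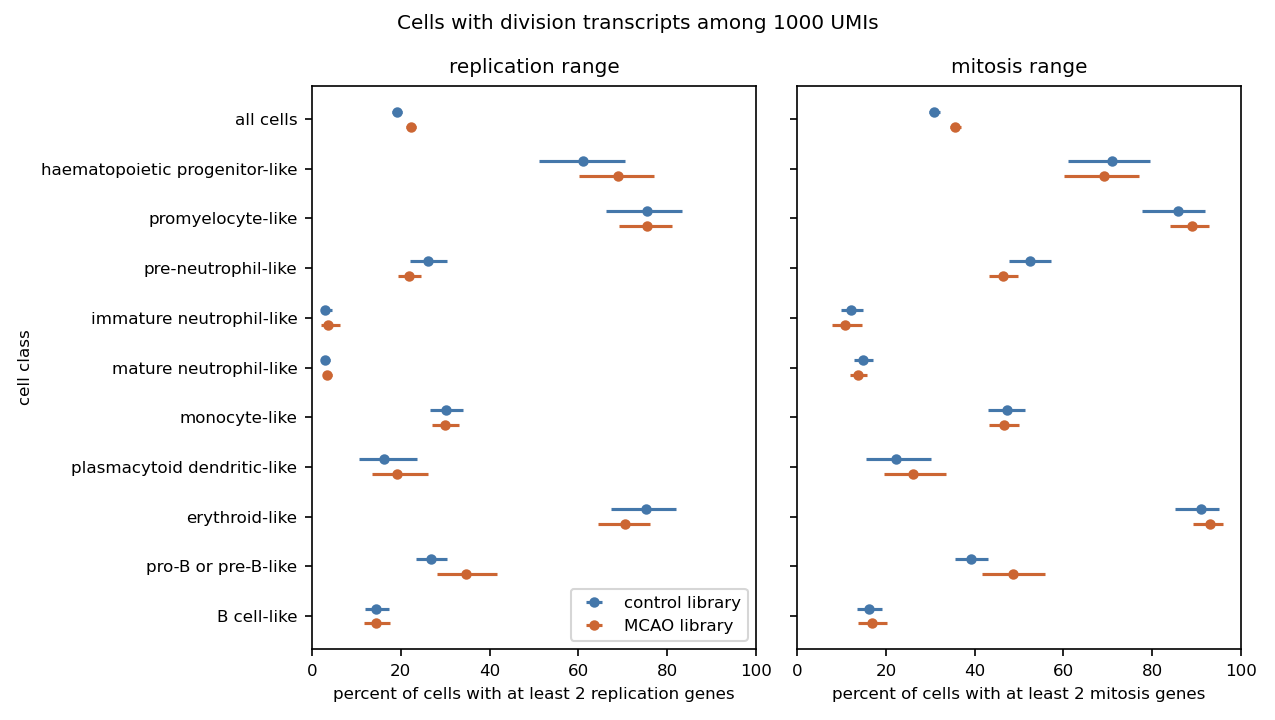
Percent of cells with at least 2 different replication genes (left) or mitosis genes (right) among 1000 UMIs, for all cells and each class, blue control and orange MCAO, with exact 95% binomial intervals. Intervals of the libraries overlap in every class shown, while over all cells the MCAO share is higher.

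The share of cells in either range was 35.8% in control and 40.7% in MCAO, a gap of 4.97 percentage points. With the MCAO share of each class weighted by the control class sizes it was 36.7%, a gap of 0.944 points. In this setting most of the gap went with the sizes of the classes, which depend on how the neutrophil stages were split. With the 3 neutrophil-like classes after the promyelocyte joined, the weighted share was 39.4% and the gap 3.59 points. With all genes eligible for clustering the weighted gap was 2.19 points. The gap also changed with depth. In cells with at least 2000 UMIs it was 3.20 points, and 0.491 weighted. Thinned to 2000 UMIs it was 1.68 points, and -0.257 weighted. Pre-neutrophil-like cells made up 13.9% of control and 21.5% of MCAO cells in either range, pro/pre-B-like cells 16.2% and 4.90%, and erythroid-like cells 7.45% and 10.7%. The pre-neutrophil-like class was 9.06% of the control and 17.9% of the MCAO library, and the pro/pre-B-like class 13.5% and 3.72%. Summed over each whole library, the replication level was 21.2 in control and 22.8 in MCAO (ratio 1.08, interval 1.07 to 1.09), and the mitosis level 51.8 and 53.3 (1.03, 1.02 to 1.03).

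Within classes, the genes were compared between the libraries by the ratio of their levels. A gene was ranked in a class if it had at least 50 UMIs in both libraries together and a UMI in at least 2% of the cells in 1 library, and it counted as past the threshold at 1.5-fold on the log2(level + 0.02) scale. Of 377 pairs of a gene and a class that could be ranked, 351 lay within 1.5-fold, 13 were higher in MCAO and 13 were lower. Of all ranked genes, 2.26% to 6.88% were higher and 2.93% to 8.47% lower, depending on the class, so these counts, pooled over classes, do not set the division genes apart. Most of the higher calls were in plasmacytoid dendritic-like cells and most of the lower calls in B cell-like cells. There the share of division genes called in that direction was above that of all ranked genes, with values given below. Of the replication pairs, 137 of 144 lay within, and of the mitosis pairs, 214 of 233. Counts of genes by direction alone, given below for some classes, have no share over all ranked genes beside them and are a description.

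In haematopoietic progenitor-like cells no replication gene passed and 2 of 24 mitosis genes were lower in MCAO, Cenpf (1.85 in control, 1.18 in MCAO) and Kif23 (1.14 and 0.744), where 4.25% of all ranked genes were lower and 3.47% higher. Nearest inside the lower threshold was Bub1b, a checkpoint kinase gene, at 0.771 and 0.551. Gins2, at 0.15 and 0.233, lay just under the upper one. In promyelocyte-like cells 1 of 16 replication genes was higher, Ccne1, at 0.253 and 0.407, where 3.36% of all ranked genes were higher and 3.78% lower. Mcm5, at 3.01 and 4.0, and Hmmr, at 2.12 and 1.51, stayed within the threshold. The summed replication level was higher in MCAO (ratio 1.10, interval 1.07 to 1.14) and the summed mitosis level lower (0.914, 0.894 to 0.934). The latter was 1.00 when all genes were allowed into the clustering.

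In pre-neutrophil-like cells none of 15 replication and 25 mitosis genes was past 1.5-fold, where 2.39% of all ranked genes were higher and 3.32% lower. By direction alone, all 25 mitosis genes and 13 of 15 replication genes had a lower level in MCAO. Aurka, the kinase of the spindle poles, was furthest at 0.593 and 0.423, and Mcm4 was at 0.784 and 0.557. The summed ratio was 0.859 (0.845 to 0.873) for mitosis and 0.869 (0.840 to 0.899) for replication. At the finer clustering, the strongly dividing cluster had mitosis levels of 101 and 100.3, and the hardly dividing one, with 240 control and 611 MCAO cells, had 21 and 16.6, so the mixture of both differed between the libraries. With all genes allowed into the clustering the ratios were 1.00 and 1.09. Immature neutrophil-like cells had Mcm5 higher (0.221 and 0.355), where 2.36% of all ranked genes were, and Cenpf (0.191 and 0.120) and Kif11 (0.170 and 0.0491) lower, where 6.4% were. Kif11 rested on 62 and 9 UMIs. Mature neutrophil-like cells had none of 13 replication and none of 23 mitosis genes past the threshold, where 6.88% of all ranked genes were higher and 8.03% lower. The largest cluster of that class was not the same in the libraries: 1 cluster held 984 control and 421 MCAO cells, a second 142 and 597, and the last 33 and 376. In that order, the mitosis ratio within them was 1.10 (1.02 to 1.19), 0.763 (0.691 to 0.843) and 0.861 (0.644 to 1.17). This difference between clusters was not tested.

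In erythroid-like cells none of 16 replication and 24 mitosis genes was past 1.5-fold, where 2.86% of all ranked genes were higher and 7.09% lower, and the summed ratios were 1.02 (0.994 to 1.04) and 0.997 (0.979 to 1.01). In the large cluster alone they were 1.06 (1.03 to 1.08) and 1.03 (1.01 to 1.05), and in the small one the mitosis ratio was 1.36 (1.14 to 1.64). Gins2, at 0.347 and 0.255, was furthest, and among genes of higher level Bub1 was at 1.90 and 1.47. Monocyte-like cells likewise had none of 16 and 25 genes past the threshold, where 2.26% of all ranked genes were higher and 2.93% lower. Plk1 was furthest on the mitosis side, at 0.771 and 1.01, and the summed ratios were 1.01 and 1.02. The clusters of this class differed: the mitosis ratio was 0.608 (0.585 to 0.632) in the cluster of 304 control and 459 MCAO cells and 1.07 (1.05 to 1.08) in the dividing cluster of 225 and 391 cells, a difference between clusters that was not tested and that the class value does not show.

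In pro/pre-B-like cells all 16 replication genes had a higher level in MCAO, and 1, Ccne2, passed the threshold at 0.477 and 0.728, where 5.77% of all ranked genes were higher and 8.47% lower. Mcm5 came nearest below it at 2.51 and 3.68. The summed replication ratio was 1.23 (1.18 to 1.28) and the mitosis ratio 1.16 (1.14 to 1.19), with Ncapg2 at 1.02 and 1.47 furthest among mitosis genes. Of the D cyclins and G1 kinases 4 of 8 were higher, with Ccnd2, a D cyclin, at 1.52 and 3.49 and Cdk6 at 2.48 and 3.78. The makeup of this class also differed: 83 of 702 control and 48 of 201 MCAO cells sat in a cluster led by Vpreb1, Igll1 and Dntt, genes of the earliest B line stages, with replication levels of 45.0 and 47.2, and the larger cluster had 25 and 29.0. Within the larger cluster the replication ratio was 1.16 (1.09 to 1.23) and the mitosis ratio 1.27 (1.24 to 1.31). Within the cluster led by Vpreb1 they were 1.05 (0.994 to 1.11) and 1.04 (1.002 to 1.08).

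In B cell-like cells the calls were on the lower side. 2 of 13 replication genes (Mcm2 and Tyms) and 6 of 21 mitosis genes (Top2a, Aurkb, Bub1, Bub1b, Cenpe and Kif11) were lower in MCAO, where 5.46% of all ranked genes were lower, and none was higher, where 3.79% were. Bub1, a kinase of the spindle checkpoint, was at 0.246 and 0.102, and Top2a at 3.15 and 1.94. Mcm3, at 0.625 and 0.414, lay just inside the lower threshold. The summed ratios were 0.838 (0.776 to 0.905) for replication and 0.776 (0.732 to 0.823) for mitosis. The class joined 2 clusters whose shares differed between the libraries, one of 414 control and 421 MCAO cells and one of 276 and 136. Within them the replication ratio was 0.914 (0.824 to 1.01) and 0.907 (0.804 to 1.02), intervals that include 1, and the mitosis ratio 0.738 (0.687 to 0.793) and 0.864 (0.776 to 0.960). In each library 13 cells held 50% of the mitosis UMIs of this class, and the share of cells in the mitosis range was 16.1% and 16.8%, so the ratio rests on few cells.

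Plasmacytoid dendritic-like cells, the interferon-producing dendritic cells of marrow, had the mitosis ratio furthest from 1 among the 10 classes. Cd209a, a gene of conventional dendritic cells, was among the leading genes of this class. At the finer clustering a conventional dendritic-like cluster of 26 control and 44 MCAO cells stood apart, with mitosis levels of 69.2 and 62.8, and the plasmacytoid cluster of 119 and 125 cells had 22.2 and 39.4. Mitosis genes were higher in MCAO in 23 of 24 cases, and 9 passed 1.5-fold: Top2a, Cdk1, Ccna2, Aurka, Cdc20, Cenpa, Ube2c, Hmmr and Ncapg2, where 6.8% of all ranked genes were higher. Ncapg2 was at 0.358 in control and 0.948 in MCAO, Aurka at 0.20 and 0.479, Ccna2 at 0.759 and 1.56, and Cdc20 at 0.258 and 0.521. Cenpa, at 1.17 and 1.83, was the last to pass and Cenpe, at 1.25 and 1.81, the first that did not. Of 13 replication genes Mcm7 was higher, at 0.429 and 0.896, and Cdc6 lower, at 0.515 and 0.302, where 6.5% of all ranked genes were lower.

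The summed mitosis ratio of this class was 1.42 (1.35 to 1.5) and the replication ratio 1.06 (0.981 to 1.16). Of 47 further mitosis genes 20 were higher and none was lower, among them Melk at 0.129 and 0.448. Yet 7 control and 9 MCAO cells held 50% of the mitosis UMIs, and without the 5 cells richest in them per library the levels were 19.7 and 31.6 and the ratio 1.60. The share of cells in the mitosis range was 22.2% (15.5 to 30.2) and 26.1% (19.5 to 33.6), not distinguishable at this number of cells.

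**Figure D5:**
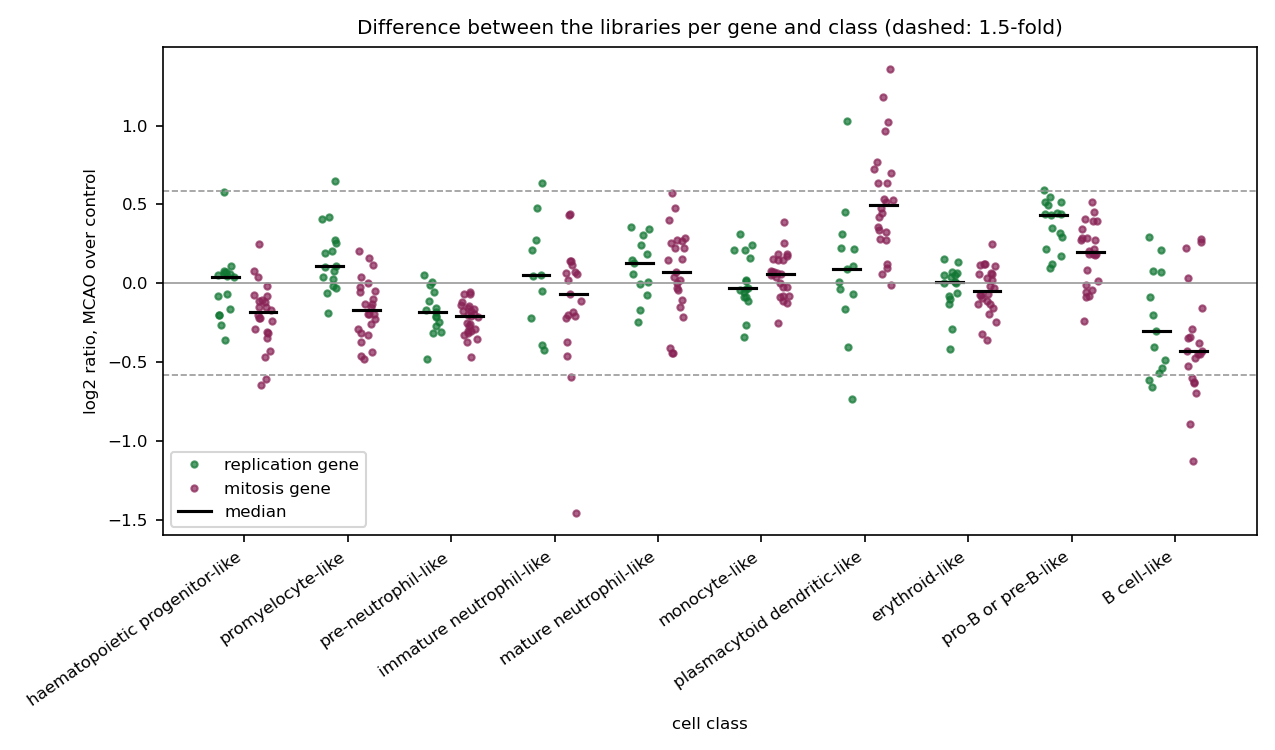
Log2 ratio of MCAO over control for each ranked gene (1 point per gene) in each class, replication genes green and mitosis genes purple, with a black bar at the median and dashed lines at 1.5-fold. The median of the mitosis genes is highest in plasmacytoid dendritic-like cells and lowest in B cell-like cells, and most points of the other classes lie between the dashed lines.

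In classes below 100 cells the levels are given without a comparison of genes. T cell-like cells (94 and 91) had a mitosis level of 57.8 in control and 17.8 in MCAO and a replication level of 23.8 and 13.7, and in each library 4 cells held 50% of the mitosis UMIs. NK cell-like cells (38 and 42) had mitosis levels of 73.9 and 58.1, of which 4 and 3 cells held 50%, and 40.3 and 15.5 without the 5 richest cells. Basophil or mast-like cells (54 and 50) had 57.0 and 58.2.

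The low levels in mature neutrophil-like cells served as a check on background RNA. The level of a gene there was a median of 12.1% of its whole-library level in control and 13.9% in MCAO over the 41 genes. Kif23 stood apart with 65.0% in both libraries. Mature neutrophil-like cells held 246 UMIs of it in control, a level of 0.870 (0.765 to 0.986), and 394 in MCAO, a level of 0.807 (0.729 to 0.890). A UMI of Kif23 was found in 14.6% and 17.6% of those cells. In immature neutrophil-like cells it was lower, at 0.353 and 0.486, and in pre-neutrophil-like cells 1.90 and 1.54, so the lowest level along the line was in immature neutrophil-like cells in both libraries. No other annotated gene overlaps Kif23 on chromosome 9. After Kif23, the highest share of the whole-library level was that of Cenpa in control, with 30.1% (22.6% in MCAO). In MCAO it was that of Bub1b, with 25.5% (15.8% in control).

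The genes outside the 41 and outside the further lists whose log2 levels over the 20 class and library values were most like the summed replication level were Wdhd1 (Pearson's r 0.994), Fignl1 (0.989), the Pcna pseudogene Pcna-ps2 (0.987), Mms22l (0.987) and Atad5 (0.985), among 9237 genes with at least 500 UMIs. Wdhd1 is a replication fork protein gene. For the summed mitosis level they included Spag5 (0.990), Stil (0.986), the linker histone gene Hist1h1b (0.985) and Dlgap5 (0.982). Spag5 and Dlgap5 code for spindle proteins and Stil for a centriole protein. Of the 50 most alike genes, 27 were in the lists for replication and 42 for mitosis. Any of the 41 genes among them entered a sum itself and is like it in part by construction. The share of listed genes among all 9237 is not given here, so nothing is drawn from these counts. The points share libraries and depth, and the r values are a description.

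In the mm10 gene annotation (GENCODE M21), 18 of the 41 genes overlap another annotated gene, 14 of them on the opposite strand, and the sources used here do not say whether counting used the strand. Ccnb1, Ccnb2, Pcna and Tyms have named pseudogenes, and Pcna-ps2 was counted as a row of its own, so UMIs of Pcna may be split. These 4 genes are uncertain to that extent.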

How the data were processed

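Marrow cells of 1 control and 1 MCAO library were profiled by single-cell RNA sequencing. The deposited values are natural logs, ln(1 + 10000 × share of the UMIs of a cell), made by the authors. Reads went through fastp, STAR, UMI-tools and Seurat 4.0.6 against mm10, per the submitters' processing notes; the annotation and the strand used in counting are not given in the sources used here. Whole UMIs were recovered from 100% of 19373615 values above 0 (tolerance 0.01): 25886279 for control cells and 35401492 for MCAO cells. Cells were clustered with scanpy 1.11.5 and igraph 0.11.9 on 2000 variable genes without 237 division genes, 30 principal components and resolution 1, in Python 3.11.15, and classes were named from marker genes. A doublet score built on simulated doublets marked 52 control (0.998%) and 57 MCAO cells (1.06%), and 41.1% and 35.3% of simulated doublets. Marked cells were kept, and were left out as an alternative. UMIs were summed per class and library. Intervals are exact Poisson, exact binomial (Clopper-Pearson) or exact conditional for ratios, at 95%. With 1 library per group no test was made. The fold calls were checked on simulated data.

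In each class, up to 4 replication and 4 mitosis genes furthest from 0 and those nearest to the thresholds were eligible to be named; per role, those with the highest and lowest share in 1 class; and the 5 genes most alike in pattern to each summed level. 1 of the latter is not reported here. Kif23 in mature neutrophil-like cells, Kif20a and the genes of the small erythroid-like cluster were chosen after their values were seen. The 41 genes and all other lists were chosen with earlier results of these data known. Alternatives covered clustering, doublets, depth, scaling, pseudocount, minimum count, fold and the definition of the ranges. Promoter windows came from RefSeq (GRCm38.p6), and the 8 genes without an entry were Mcm4, Tpx2, Aurkb, Ccna2, Kif20a, Gins2, Stmn1 and Ccne2.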

Additional observations from a re-analysis of the deposited data

Results flagged for a closer look

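The summed ratio of MCAO over control had counting intervals on opposite sides of 1 in different classes. For the replication genes it was above 1 in pro/pre-B-like (1.23), immature neutrophil-like (1.14), promyelocyte-like (1.10) and mature neutrophil-like cells (1.09). It was below 1 in B cell-like (0.838) and pre-neutrophil-like cells (0.869). For the mitosis genes it was above 1 in plasmacytoid dendritic-like (1.42), pro/pre-B-like (1.16) and monocyte-like cells (1.02), and below 1 in B cell-like (0.776), pre-neutrophil-like (0.859), haematopoietic progenitor-like (0.893) and promyelocyte-like cells (0.914). The difference between classes was not tested, since each group had 1 library.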

How the results depend on the processing

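Of 225 alternative values for 29 results, 150 stayed within the counting interval (counts of genes within 1.5 times) and 70 did not, and 5 ratios whose interval had excluded 1 changed side of 1. Ratios whose interval had included 1, such as that of mitosis in erythroid-like cells, also changed side under some settings and are not among those 5. No paired analysis was possible because each group had 1 library. With all genes eligible for clustering, the mitosis ratio (MCAO over control) changed to 1.00 in pre-neutrophil-like and promyelocyte-like and to 0.976 in monocyte-like cells, and the replication ratio of pre-neutrophil-like cells to 1.09, all on the other side of 1. The mitosis ratio was then 1.03 in erythroid-like, 1.07 in immature neutrophil-like and 1.27 in plasmacytoid dendritic-like cells, the replication ratio of monocyte-like cells 0.952, and 1 replication gene was higher. At resolution 2 the mitosis ratio was 1.00 in monocyte-like (just below 1, the other side), 1.03 in erythroid-like, 1.78 in plasmacytoid dendritic-like, 0.835 in pre-neutrophil-like and 0.969 in promyelocyte-like cells, and the replication ratio 0.984, 1.18 and 0.834 in monocyte-like, plasmacytoid dendritic-like and pre-neutrophil-like cells. Progenitor-like cells gave no value in either clustering. Without doublets the mitosis ratio of mature neutrophil-like cells was 0.985.

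In cells with at least 2000 UMIs, the replication and mitosis ratios were 0.736 and 0.698 in B cell-like and 1.15 and 1.07 in pro/pre-B-like cells, and 6 replication genes were lower. The shares of cells were then 22.1% and 23.6% for replication and 34.2% and 37.2% for mitosis, and 39.4% for either at the control makeup. As a mean over cells, the replication ratio was 0.967 in B cell-like, 1.01 in progenitor-like and 1.04 in monocyte-like cells. The mitosis ratio was 0.877 in B cell-like, 0.925 in erythroid-like, 0.923 in progenitor-like, 1.07 in monocyte-like, 1.23 in plasmacytoid dendritic-like, 0.823 in pre-neutrophil-like, 1.32 in pro/pre-B-like and 0.937 in promyelocyte-like cells, with 8 replication genes higher and 6 mitosis genes lower. Divided by the median ratio of all genes, erythroid-like cells had 1.08 for replication and 1.05 for mitosis, and pre-neutrophil-like cells 0.881 for mitosis. With haemoglobin genes left out, erythroid-like cells had 1.04 and 1.02.

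With a minimum of 20 UMIs, or none, 5 replication genes were lower. With a pseudocount of 0.1, 1 replication gene was higher, 1 lower, and 5 mitosis genes lower. With a fold of 2, 1 replication gene was higher and 0 lower, and 3 mitosis genes were higher and 2 lower. The counts are pairs of a gene and a class, and in the main setting they were 4 and 3 for replication and 9 and 10 for mitosis. Chosen after seeing the data, leaving out the 5 cells richest in these genes per class and library gave replication ratios of 1.05 in progenitor-like, 1.16 in plasmacytoid dendritic-like and 1.17 in pro/pre-B-like cells. It gave mitosis ratios of 0.701 in B cell-like, 1.05 in immature neutrophil-like, 1.60 in plasmacytoid dendritic-like, 1.14 in pro/pre-B-like and 0.942 in promyelocyte-like cells, and 14 mitosis genes higher. With at least 3 genes the shares were 11.4% and 14.1% for replication, 20.2% and 24.9% for mitosis, and 23.4% at the control makeup. Thinned to 2000 UMIs they were 34.1% and 36.1%, 51.4% and 52.9%, and 59.1%. With the neutrophil-like classes joined, also chosen after seeing the data, the share at the control makeup was 39.4%. The cause of these changes was not tested. Genes with few UMIs, such as Gins2 and Kif20a, have wide intervals at this depth.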
